A study of Mus musculus with 3 samples.

Results

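Guanylate-binding proteins (Gbp genes) and immunity-related GTPases (Irg genes) are GTP-hydrolysing proteins that interferons induce in mouse cells. They gather on the membranes of pathogen vacuoles and on bacteria in the cytosol, break them open and expose bacterial lipopolysaccharide (LPS) to the inflammasome. The set described here holds 9 genes, 4 of the Gbp family (Gbp2, Gbp3, Gbp5 and Gbp7) and 5 of the Irg family (Irgm1, Irgm2, Igtp, Iigp1 and Ifi47). They were taken by symbol from the 45761 gene symbols present in both deposited tables, keeping for each symbol the row with the largest summed value.

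RNA was sequenced from RAW264.7, a macrophage line that came from a mouse tumour caused by an Abelson leukaemia virus. It was grown as high density cells given LPS at 500 ng/ml for 24 h from 24 h after seeding (HD+LPS), high density cells without LPS (HD) and low density cells without LPS (LD). Each group had 1 library of the same cell line, so no difference has a replicate check and all values describe these libraries. Of 8 macrophage markers, 7 were measured, at 1 FPKM or more, and Mertk was listed at 0, with a summed level of 3847 FPKM in HD+LPS and 3070 FPKM in HD, and of 3368 FPKM in HD and 4196 FPKM in LD. The sums include Cd68 from a row joined with Eif4a1 and Mpdu1. With LPS, 3 of the 7 were at least 2-fold higher (Adgre1, Itgam and Cd14), against 8.45% of all measured genes. Csf1r and Lyz2 were lower within 2-fold, and 5.84% of all measured genes were at least 2-fold lower. The part of these markers in the results was not tested. By contrast, 0 of 6 fibroblast, 0 of 5 epithelial and 0 of 8 lymphocyte markers reached 1 FPKM in any library.

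Levels are FPKM (fragments per kilobase of transcript, scaled for sequencing depth) as Cuffdiff gave them within each table, which makes genes comparable per length. The HD library stands in each table with a scaling of its own, so ratios were taken within a table. From the lowest values of single-transcript genes, 1 FPKM over 1 kilobase corresponded to about 14.5 fragments in the HD+LPS library and 17.5 in HD in the LPS table, and to about 15.9 in HD and 16.3 in LD in the density table. Because a 0 from Cuffdiff may stand for an estimate that failed, such genes are called listed at 0.

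Most of the genes lie in clusters. Gbp5, Gbp7, Gbp3 and Gbp2 lie in that order within 141075 bases of chromosome 3 (142496934 to 142638008 on GRCm38), together with a family gene that is not in the set, Gbp2b, the long non-coding RNA Gm40158 that overlaps Gbp3, and the microRNA gene Mir6381 within Gbp2. Irgm1 and Ifi47 mark the ends of a cluster on chromosome 11 (48865245 to 49096987), and Igtp and Irgm2 are neighbours further along that chromosome (58199556 to 58222783). Iigp1 lies on chromosome 18 (60373616 to 60392634).

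Promoter windows from RefSeq ran from 250 bases before to 50 bases after each annotated start on GRCm38.p6. They were found for 8 of the 9 genes, all but Iigp1. The interferon-stimulated response element (ISRE) core, searched as TTTC, any 2 bases and TTTC on either strand, belongs to the sequence that interferon-activated factors bind. It was present in the windows of 7 of the 8 genes, all but Ifi47, against 3.44% of 32851 windows of the same length in the table. The gamma-activated site (GAS), TTCNNNGAA, which reads the same on both strands, was present in 4 of the 8, Gbp5, Gbp7, Igtp and Irgm2, against 8.30% of windows. A kappaB motif, searched as GGG, any 3 bases and TTCC on either strand, was present in Gbp2 and Gbp5, 2 of the 8, against 5.56% of windows. The counts are per gene and the shares per window. These 8 genes have 9 windows, and a further window of Gbp3 held no match to the motifs searched. A match is a description of these letters and not evidence of a bound site. The motifs were chosen for the families' known regulation.

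The 60 bases around the ISRE core of each gene are shown because most of the set has this core in common. Apart from the pair of Igtp and Irgm2, these windows, compared position by position without gaps, matched at 6 to 29 of the 60 positions. Shared stretches that are offset between windows, as between Irgm1 and Irgm2, are not counted. They run 5′ to 3′ in the direction of the gene, with ISRE and GAS matches in capitals. Gbp3 and Irgm1 each hold a pair of overlapping ISRE matches, and no GAS match overlapped an ISRE match in the set.
Gbp2, chr3:142620564-142620623, plus strand: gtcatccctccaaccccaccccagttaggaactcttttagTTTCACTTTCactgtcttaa
Gbp3, chr3:142559965-142560024, plus strand: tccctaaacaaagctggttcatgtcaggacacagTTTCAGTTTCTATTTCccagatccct
Gbp5, chr3:142496729-142496788, plus strand: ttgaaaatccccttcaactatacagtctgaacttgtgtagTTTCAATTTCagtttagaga
Gbp7, chr3:142530243-142530302, plus strand: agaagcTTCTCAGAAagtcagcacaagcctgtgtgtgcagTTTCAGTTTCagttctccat
Irgm1, chr11:48871425-48871484, minus strand: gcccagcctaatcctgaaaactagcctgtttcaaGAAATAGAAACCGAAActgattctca
Irgm2, chr11:58214873-58214932, plus strand: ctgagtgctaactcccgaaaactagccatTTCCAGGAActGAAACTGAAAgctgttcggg
Igtp, chr11:58199482-58199541, plus strand: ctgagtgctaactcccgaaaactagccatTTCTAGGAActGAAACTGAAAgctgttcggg

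In the 4 Gbp genes the ISRE core read TTTC first in the direction of the gene, and in the 3 Irg genes it lay on the opposite strand. The ISRE began between 30 and 64 bases before the start in 6 of the 7 genes, taking the outer match of a pair, and 165 bases before it in Gbp5. Igtp and Irgm2 shared 59 of the 60 bases, and in both a GAS match ended 2 bases before the ISRE. The same spacing of 2 bases was found in Tgtp1 and Tgtp2, a pair of Irg genes outside the set. Motifs were also counted over genes measured in the LPS table with a promoter window. An ISRE core was present in 63 of 703 genes at least 2-fold higher with LPS (8.96%). It was present in 3.31% of 7588 genes within 2-fold and in 4.89% of 491 genes at least 2-fold lower. In the same order of groups, GAS was present in 9.96%, 7.96% and 7.13%, and kappaB in 8.68%, 7.10% and 8.55%.

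**Figure D1:**
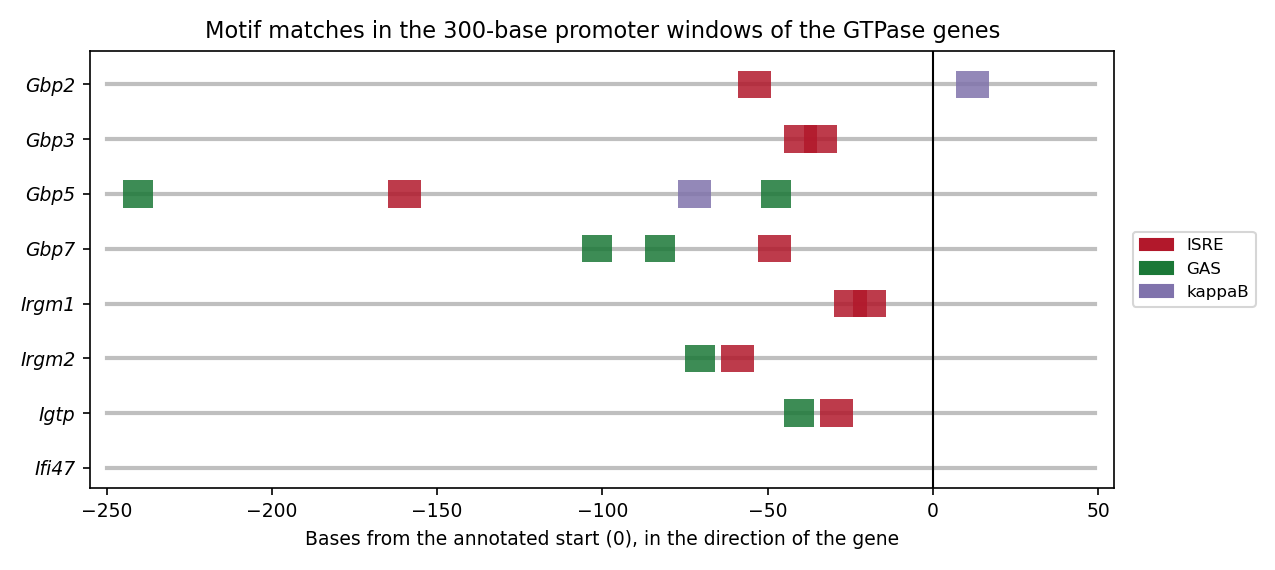
Motif matches in the promoter window of 8 genes, with distance in bases from the annotated start (0) on the horizontal axis and 1 line per gene. Bars are ISRE (red), GAS (green) and kappaB (violet) matches; for Gbp3 the first of its windows is drawn. The ISRE bars of 6 genes lie within 64 bases before the start, and the GAS and ISRE bars of Irgm2 and Igtp are 2 bases apart.

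The first comparison set LPS-treated against untreated high density cells. All 7 genes with a value above 0 were higher in the HD+LPS library, 0 were lower, and Igtp and Ifi47 were listed at 0 in both libraries. Of the 7, Gbp2, Gbp5 and Iigp1 were listed at 0 in HD, so they entered the count through HD+LPS alone and could not be lower. Of 18606 symbols above 0 in either library, 49.2% were higher with LPS, and of the 9212 of these under 4 FPKM, a limit set after the values were seen, 44.8% were. The summed level of the 9 genes was 6.74 FPKM in HD+LPS and 1.03 FPKM in HD. Irgm1 alone made up 53.4% of that sum in HD+LPS and 82.1% in HD. In bulk RNA, fewer cells that express a gene and less RNA per cell cannot be told apart. The levels were low with LPS: 2 of the 9 genes exceeded 1 FPKM, a level that 23.7% of all symbols reached in the same library.

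Among the Gbp genes, Gbp3 had the highest level. It was 1.66 FPKM in HD+LPS and 0.142 FPKM in HD, from about 64.1 and 6.60 estimated fragments. The ratio of these levels was 11.7, with an exact 95% counting interval of 5.27 to 31.3. Intervals here cover counting error only, not the spread between cultures. Gm40158, which overlaps Gbp3, was 0.189 FPKM in HD+LPS and listed at 0 in HD, and since no source used here states the strand setting, their reads cannot be told apart.

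Gbp7 was 0.483 FPKM in HD+LPS and 0.00976 FPKM in HD, the HD value resting on about 0.959 estimated fragments against 39.3 in HD+LPS. The ratio was 49.5, and its counting interval of 8.14 to 2297 shows how little the HD value fixes it. Gbp7 works with an oxidase on vacuoles in infected mouse macrophages. Gbp2, which coats pathogen vacuoles and carries a lipid anchor, was 0.467 FPKM in HD+LPS, about 17 fragments, and was listed at 0 in HD, a pattern that 13.8% of the 9212 symbols under 4 FPKM had. Gbp5, known for promoting assembly of the NLRP3 inflammasome, was 0.158 FPKM in HD+LPS, about 7.00 fragments, and was listed at 0 in HD. Taken as 0 fragments, the HD values have exact upper limits of 0.0838 FPKM for Gbp2 and 0.0690 FPKM for Gbp5. The limit lies below the counting interval of Gbp2 in HD+LPS (0.272 to 0.747 FPKM) but overlaps that of Gbp5 (0.0635 to 0.326 FPKM). An overlap of separate intervals does not decide whether levels differ, and no ratio interval was computed for genes listed at 0 in HD.

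The Irgm genes encode regulators that hold the other Irg proteins inactive on the cell's own membranes. Irgm1 was the most abundant gene of the set in every library, at 3.60 FPKM in HD+LPS and 0.844 FPKM in HD, about 113 and 32 fragments. The ratio was 4.27 with a counting interval of 2.86 to 6.53. Irgm2 was 0.321 FPKM in HD+LPS and 0.0329 FPKM in HD, about 16.1 and 1.99 fragments, a ratio of 9.74 with a counting interval of 2.29 to 87.7. Igtp, also called Irgm3, was listed at 0 in both libraries.

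The remaining Irg genes encode effectors that load onto vacuoles. Iigp1, also called Irga6, was 0.0507 FPKM in HD+LPS, about 2.22 fragments, and listed at 0 in HD. That level is under the floor of 3 fragments, so no difference between the libraries was detectable for it. Ifi47, also called Irgd, was listed at 0 in both.

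**Figure D2:**
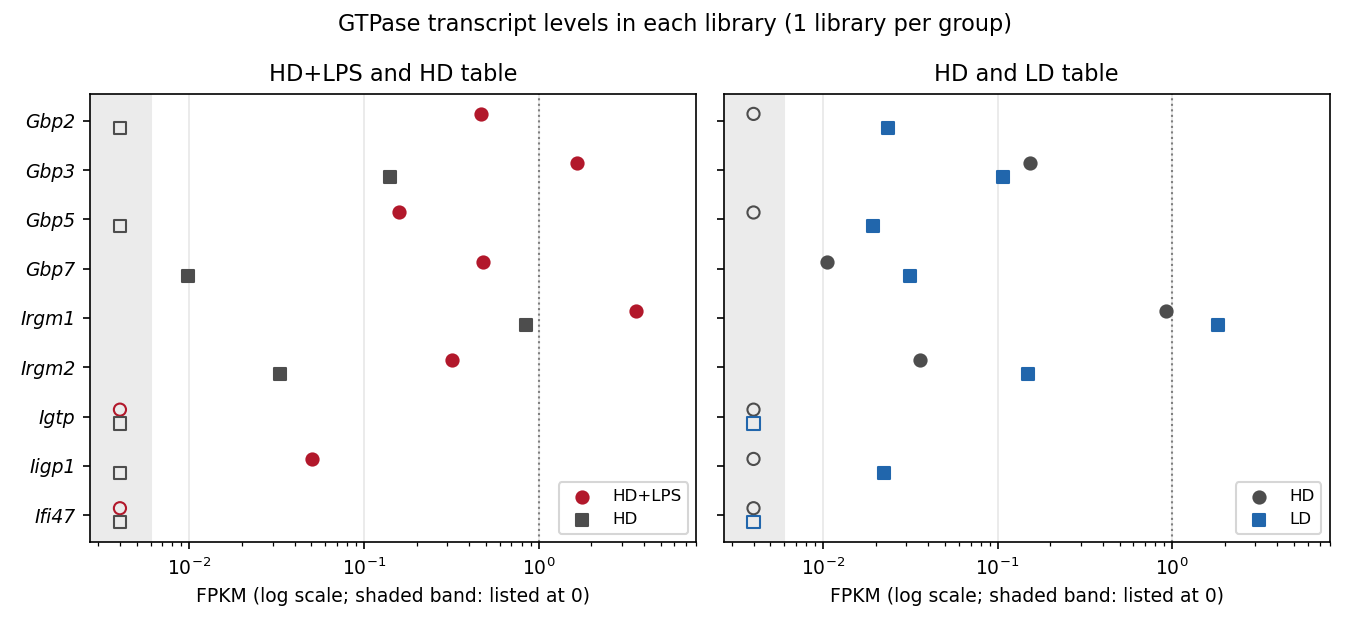
Level of each gene in FPKM on a log axis, with the HD+LPS and HD libraries in the left panel and the HD and LD libraries in the right panel. Each point is 1 library, open symbols in the shaded band are genes listed at 0, and the dotted line is 1 FPKM. With LPS, 7 genes lie to the right of their HD value, and only Irgm1 at 3.60 FPKM and Gbp3 at 1.66 FPKM pass the line.

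In HD+LPS the order of the levels was Irgm1, Gbp3, Gbp7, Gbp2, Irgm2, Gbp5 and Iigp1. The counting intervals of Irgm1 (2.97 to 4.33 FPKM) and Gbp3 (1.28 to 2.12 FPKM) did not overlap, and that of Gbp3 lay above that of Gbp7 (0.344 to 0.659 FPKM). The intervals of Gbp7, Gbp2 (0.272 to 0.747 FPKM) and Irgm2 (0.184 to 0.520 FPKM) overlapped, as did those of Irgm2 and Gbp5 (0.0635 to 0.326 FPKM). These intervals alone do not decide the order of the genes that overlap.

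On the scale log2((FPKM + 1)/(FPKM + 1)), which understates the change of low genes, Gbp3 and Irgm1 were at 1.22 and 1.32. They were the only genes of the set with 1 FPKM or more in either library, and both passed 2-fold, against 8.45% of 11411 measured genes. Since both were under 1 FPKM in HD and were measured only through the HD+LPS library, that count was partly fixed by the minimum. Neither passed 2-fold with 5 FPKM added in place of 1, at log2 ratios of 0.37 for Gbp3 and 0.56 for Irgm1. The other genes had log2 ratios from 0 to 0.55, with a median over all 9 of 0.35, and the median over all measured genes was 0.029. In the authors' deposited table, Gbp3 has q = 0.858 and Irgm1 q = 0.999, and the other 7 genes were not tested there, while 0.36% of 12211 tested symbols are called in either direction. Those q-values come from a test without replicates.

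**Figure D3:**
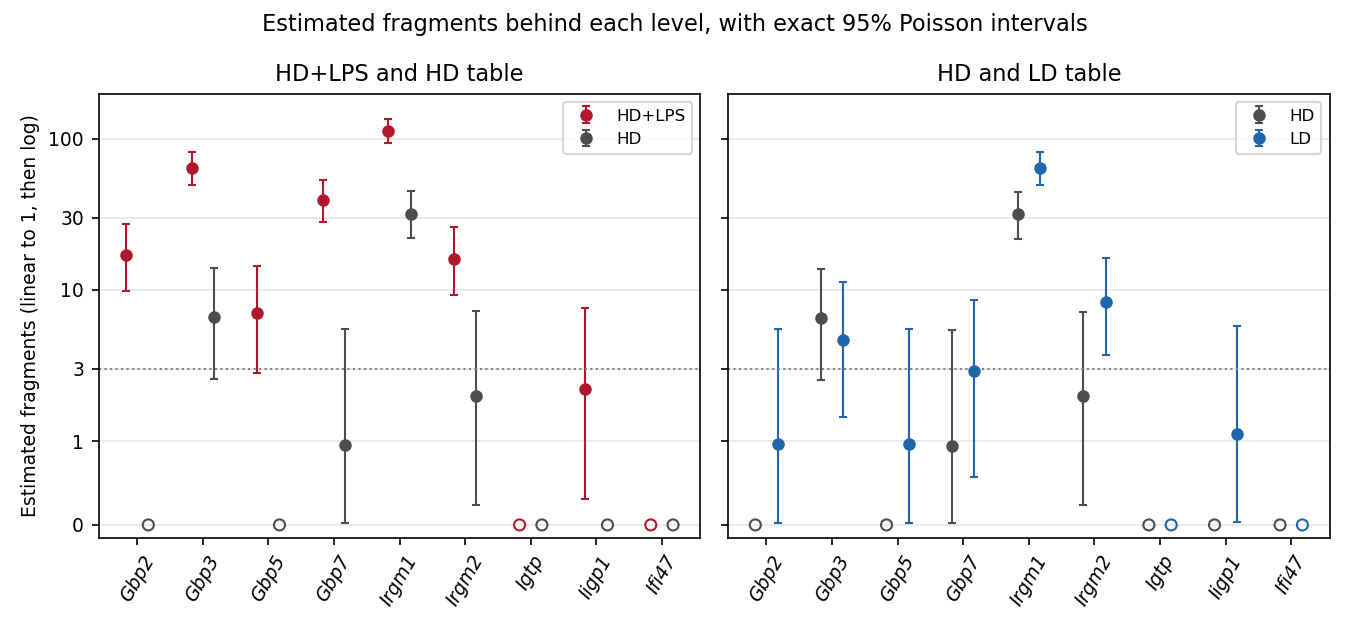
Estimated fragments behind each level on an axis that is linear to 1 and logarithmic above, with the HD+LPS and HD libraries on the left and the HD and LD libraries on the right. Bars are exact 95% Poisson intervals, open circles are genes listed at 0 and the dotted line is 3 fragments. Where both libraries have a bar, the HD+LPS intervals of Gbp3, Gbp7, Irgm1 and Irgm2 lie above those of HD, and Gbp2 has 17 fragments in HD+LPS and is listed at 0 in HD, while at high against low density only those of Irgm1 are separate, at 31.7 fragments in HD and 64.4 in LD.

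The second comparison set high against low density without LPS. Irgm1 was 0.922 FPKM in HD and 1.82 FPKM in LD, about 31.7 and 64.4 fragments. The ratio was 0.51 with a counting interval of 0.32 to 0.79, and the log2 ratio on the scale with 1 FPKM added was -0.55, within 2-fold. The summed level of the set was 1.12 FPKM in HD and 2.17 FPKM in LD, of which Irgm1 made up 82.1% and 83.7%. In the authors' deposited table Irgm1 has q = 0.999 for density, and 0.271% of 12191 tested symbols are called there.

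The other genes were at or near the value of single fragments. Irgm2 was 0.0361 FPKM in HD and 0.149 FPKM in LD, about 1.98 and 8.37 fragments, with a ratio of 0.24 and a counting interval of 0.025 to 1.21 that includes no difference. Gbp7 was 0.0106 FPKM in HD and 0.0317 FPKM in LD, about 0.942 and 2.90 fragments. Gbp3 was the only gene higher at high density, at 0.154 FPKM in HD and 0.108 FPKM in LD, about 6.52 and 4.69 fragments, and its ratio of 1.43 had an interval of 0.37 to 6.04. Gbp2, Gbp5 and Iigp1 were listed at 0 in HD and at 0.0236, 0.0195 and 0.0225 FPKM in LD, each about 1 fragment, while 14.2% of low symbols were listed at 0 in HD and above 0 in LD, and Igtp and Ifi47 were listed at 0 in both. Over the set, 6 genes had a lower value in HD and 1 a higher value, against 47.5% lower and 52.5% higher among the 9303 symbols above 0 and under 4 FPKM. Of the 6, Gbp2, Gbp5 and Iigp1 entered the count through about 1 fragment in LD and could only be lower in HD. At this depth a density difference was resolved beyond counting error for Irgm1 alone. Irgm1 was also the only gene of the set measured in the density table, so 2-fold calls could concern it alone. Over all 11324 measured genes, 0.892% were 2-fold lower and 3.53% 2-fold higher at high density.

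Igtp, Irgm1, Irgm2 and Ifi47 have copies of their loci on alternate scaffolds of the assembly used by the authors, with 2, 4, 2 and 4 rows each in the tables, while the Gbp genes and Iigp1 have 1 row. Every alternate row of these genes was listed at 0. Across protein-coding genes in the LPS table, 596 of 1100 with a further row on an alternate scaffold were listed at 0 in both libraries (54.2%), against 36.8% of 20118 genes with a single row. Gabarap and Ehd1, a pair of widely expressed genes with 2 rows each, were listed at 0 in all libraries. Other genes with several rows were not. Mfn2, with 2 rows, was 8.28 FPKM in HD+LPS and 8.08 FPKM in HD, and Naip5, with 4 rows, was 1.81 and 1.34 FPKM. The part of these copies in the values of Igtp, Ifi47, Irgm1 and Irgm2 was not tested, so no absence of Igtp or Ifi47 transcript is stated.

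Reads can also be shared between family members. Of all stretches of 50 bases in the longest matched transcript, 12.3% of Igtp's were also found in Irgm2 and 10.6% of Gbp7's in Gm43802. Gbp3 shared 4.79% with Gbp7, Gbp2 shared 2.07% with Gbp2b, and Irgm1 and Gbp5 shared 0.814% and 0.234% with transcripts of other genes. The sources used here do not say how multiply aligned reads were counted.

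In the rest of the Gbp family, all 7 other Gbp genes found in the table, which stand in 6 rows, had a higher value in HD+LPS, and 6 of the genes were listed at 0 in HD. Those 6 could not be lower with LPS. Among symbols above 0 and under 4 FPKM, 44.8% were higher with LPS and 13.8% were listed at 0 in HD alone. Gbp9 was 0.787 FPKM in HD+LPS, Gbp2b 0.353, Gbp10 0.234 and Gbp11 0.0496, each listed at 0 in HD. Gbp4 and Gbp6, joined in 1 row of the LPS table and separate in the density table, were 1.66 FPKM together and listed at 0 in HD, and Gbp8 was 0.0548 FPKM in HD+LPS and 0.0218 FPKM in HD, about 1.95 and 0.940 fragments, so that no difference was detectable for it. The authors' deposited table calls Gbp9 and the joined Gbp4 and Gbp6 row higher with LPS, both with q = 0.0174. That test had no replicates, and 0.36% of 12211 tested symbols are called in either direction. At high density Gbp8 was 0.0238 FPKM, and the other 6 were listed at 0, against at most 0.0818 FPKM, for Gbp2b, at low density.

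Of 9 other Irg genes in the table, 2 were measured. Irgq, a distant relative, was 6.39 FPKM in HD+LPS and 4.01 FPKM in HD, and 4.44 FPKM in HD and 3.69 FPKM in LD in the density table. The Irg gene 9930111J21Rik1, joined with Psme2b in 1 row, was 1.27 FPKM in HD+LPS and 0.755 FPKM in HD. Tgtp1 was listed at 0 in HD+LPS and at 0.0209 FPKM in HD, and Tgtp2, with 4 rows, was listed at 0 in every library. Both measured Irg relatives were within 2-fold in each comparison. Between Irgm1 and Ifi47, a row with no symbol (chromosome 11, 49020234 to 49020928) was 1.83 FPKM in HD+LPS and 0.113 FPKM in HD. Among other large GTPases that interferons induce, the antiviral genes Mx2 and Mx1 were 9.56 and 1.13 FPKM in HD+LPS and listed at 0 in HD. The level of Mx2 in HD+LPS exceeded the summed level of the 9 genes.

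The genes that signal to the GTPases were compared as a list of 18 ligands, receptors, kinases, factors and inhibitors, drawn up with earlier results of these data known. Measured in the LPS table were 16 of them. At 2-fold, 5 were higher with LPS, 1 was lower and 10 were within that range, against 8.45% higher and 5.84% lower over all measured genes. Their median log2 ratio was 0.66. Ifng, the ligand that most strongly induces these GTPases, was listed at 0 in every library. Ifnb1, the type I interferon that macrophages make after LPS, was 0.222 FPKM in HD+LPS, about 2.41 fragments, and listed at 0 in HD. Of the receptor genes, Ifngr1 was 7.27 FPKM in HD+LPS and 14.5 FPKM in HD, Ifnar1 was 17 and 9.65 FPKM, and both were within 2-fold on the log2 scale.

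The transcription factors that read interferon signals differed in direction. Irf9, the DNA-binding part of the factor that binds ISRE, was 33.6 FPKM in HD+LPS and 14.7 FPKM in HD in a row joined with Rnf31. Stat2, its partner, was 9.01 FPKM in HD+LPS and 6.58 FPKM in HD in a row joined with Apof. Irf7 was 185 FPKM in HD+LPS and 1.94 FPKM in HD. Irf1, which drives Gbp genes after interferon gamma, was lower, at 4.69 FPKM in HD+LPS and 12.3 FPKM in HD. Of the inhibitors, Usp18 was 50.8 and 0.743 FPKM and Socs1 1.69 and 0.114 FPKM in HD+LPS and HD. For density 0 of 15 measured genes passed 2-fold, beside 3.53% higher and 0.892% lower over all measured genes. The largest log2 ratios were 0.63 for Tyk2 and 0.59 for Irf8.

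Genes that place the GTPases on vacuoles include the ubiquitin-like conjugation system of autophagy. With LPS, 4 of the 14 measured genes passed 2-fold upward and 0 downward, beside 8.45% and 5.84% over all measured genes, and the median log2 ratio was 0.46. Among them were the cargo receptor gene Sqstm1 at 1335 FPKM in HD+LPS and 146 FPKM in HD, Rabgef1 at 25.7 and 6.88 FPKM, and the conjugation gene Atg12 at 45.1 and 17.7 FPKM. Atg3, Atg5, Atg7 and Atg16l1 were within 2-fold, for example Atg5 at 13.2 FPKM in HD+LPS and 12.1 FPKM in HD. For density Map1lc3a passed 2-fold, at 19.8 FPKM in HD and 8.31 FPKM in LD, and the other 14 measured were within 2-fold. Over all measured genes 3.53% were 2-fold higher and 0.892% 2-fold lower at high density.

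Of genes for the cell death that GBPs promote, 2 of 11 measured were at least 2-fold higher with LPS and 0 lower, where 8.45% and 5.84% of all measured genes were. Casp4, the gene of mouse caspase-11, which senses LPS in the cytosol, was 23.7 FPKM in HD+LPS and 3.49 FPKM in HD. Il1b was 4.02 and 0.0449 FPKM. Gsdmd, the pore-forming target of that caspase, was 36.3 FPKM in HD+LPS and 36.1 FPKM in HD, and Aim2 was 41.8 and 39.3 FPKM. Pycard, the adaptor that RAW264.7 is known to lack, was listed at 0 in every library. For density 0 of 9 passed 2-fold, beside 3.53% higher and 0.892% lower over all measured genes. The 6 enzymes that attach and process lipid anchors were within 2-fold in both comparisons. Pggt1b, for example, was 9.55 FPKM in HD+LPS and 6.21 FPKM in HD. For density, Zmpste24 was within 2-fold only through the added 1 FPKM, at 7.78 FPKM in HD and 15.6 FPKM in LD (log2 ratio -0.92). All 8 measured dynamin-related GTPases that interferons do not induce were within 2-fold in both comparisons.

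**Figure D4:**
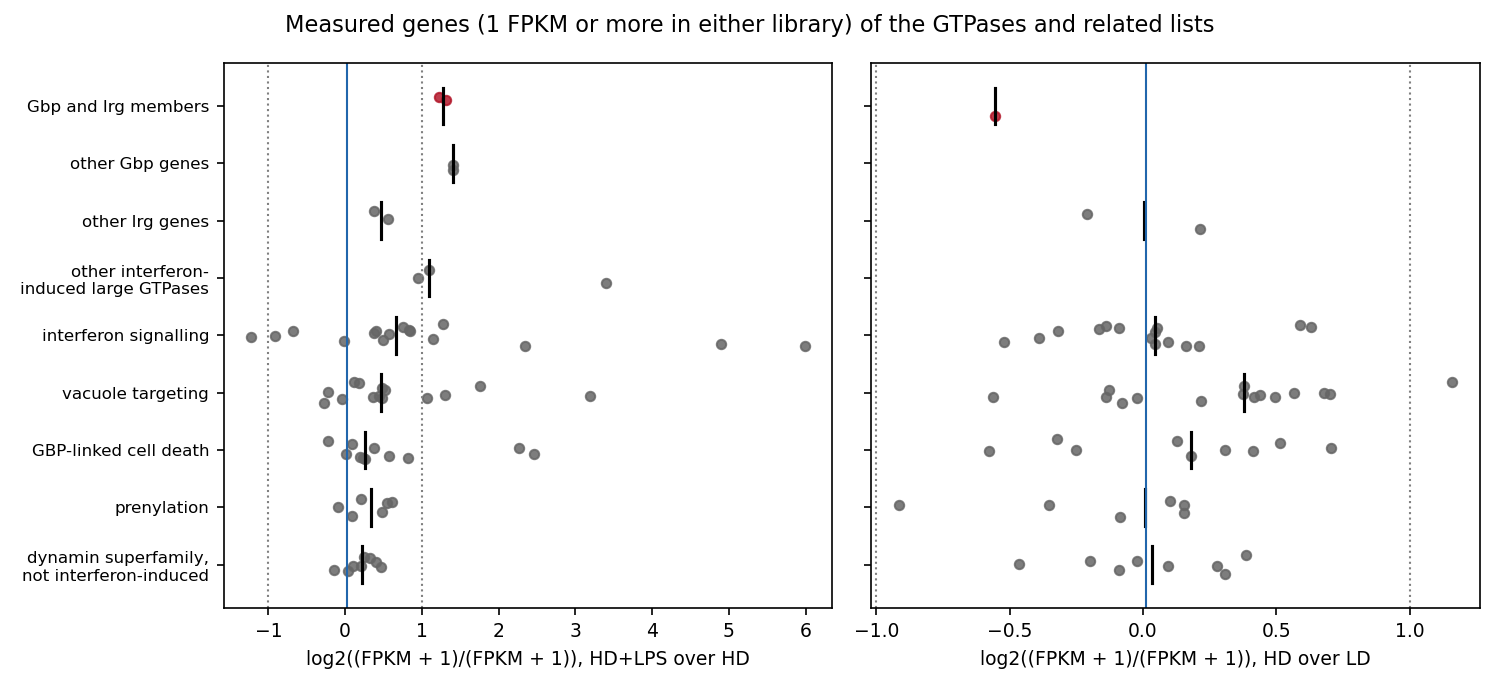
Log2 ratios of measured genes in the set (red) and in 8 related lists (grey), HD+LPS over HD on the left and HD over LD on the right. Each point is a gene, black bars are list medians, the blue line is the median of all measured genes and dotted lines mark 2-fold. In the left panel Gbp3 and Irgm1 lie past the 2-fold line at 1.22 and 1.32, and in the right panel Irgm1 lies at -0.55.

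Genes near Irgm1, the only gene of the set measured in both tables, were sought after its values were seen, by distance in the plane of both log2 ratios, among 10003 named genes measured in both tables, over the 3 libraries. Nearest on this scale, on which the added 1 FPKM compresses the ratios of Irgm1 more than those of higher genes, were Skil, Atp8b4, Mob1b, Slc12a4 and Hspa13, at distances up to 0.067. Skil was 14.4 FPKM in HD+LPS and 5.10 FPKM in HD, and 5.54 FPKM in HD and 8.62 FPKM in LD in the density table. Mki67, a proliferation marker, was 23.1 FPKM in HD+LPS and 50.1 FPKM in HD, and 48.3 FPKM in HD and 58.3 FPKM in LD.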

How the data were processed

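Reads were handled with fastp, FastQC, TopHat2 and Cuffdiff on a build named as mm10 and as GRCm38, per the submitters' processing notes, which give no versions. Neither the annotation nor the strand or scaling setting is given in the sources used here. Both tables were deposited by the authors, of 49971 rows (LPS) and 49850 rows (density), with FPKM per locus, and per the file headers their log2 ratio, test statistic (a score), p-value and q-value. No per-sample column was left unused. Locus starts were raised by 1 to be 1-based.

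Rows with no symbol were set aside and joined rows were split on commas. Ratios were made within a table as log2((FPKM + 1)/(FPKM + 1)). A gene was measured where 1 of its values reached 1 FPKM and its status was not failed, and 2-fold means a log2 ratio at or past 1 or -1. No p-value was computed, since each group had 1 library.

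Estimated fragments are FPKM times transcript length over the value of 1 fragment, read from the lowest values of single-transcript genes of 1000 bases or more. Transcript lengths were means over GENCODE M21 transcripts matched to RefSeq. For genes with several transcripts the estimate is approximate. Intervals (95%) are exact Poisson for a level and conditional Clopper-Pearson for a ratio, and cover counting error only. The value of 1 fragment and the 2-fold call were tested on simulated Poisson counts, made with the same length formula. The intervals were not tested, and how Cuffdiff corrected transcript length is not known. Promoters come from RefSeq (GRCm38.p6).

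The genes, lists and rules were chosen with earlier results of these data known. Named were all 9 genes, their measured relatives, a fixed set of signalling genes and, per list, members with the largest ratios. The receptors, Atg3, Atg5, Atg7, Atg16l1, Gsdmd, Aim2, Pycard, Pggt1b, Gabarap, Ehd1, Mfn2, Naip5 and the relatives that were not measured were named outside that rule, after their values were seen. Values of a few list members are not reported here. Genes nearest to the median of the set, also part of that rule, are left out because the pseudocount sets that median. Python 3.11.15, pandas 2.3.3, scipy 1.17.1 and matplotlib 3.10.9 were used.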

Additional observations from a re-analysis of the deposited data

How the results depend on the processing

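No paired analysis was possible because each group had 1 library. Of the 90 recomputed ratios of single genes, 73 stayed within a range for counting error around the reported value. The other 17 moved outside it, and 0 changed sign past 2-fold. That range is not the ratio interval given above, since genes listed at 0, which have no ratio interval, were judged too. Part of the 73 was fixed in advance. Summing all rows changed no ratio because every alternate row was listed at 0, and Igtp and Ifi47 were listed at 0 in every library. All 17 that moved did so at another pseudocount. With LPS, Gbp3 and Irgm1 were under 2-fold at a pseudocount of 5 FPKM, with log2 ratios of 0.37 and 0.56. At 0.1 FPKM the ratios of Gbp2 (2.50), Gbp7 (2.41), Irgm2 (1.66) and Gbp5 (1.37) were past 2-fold, though these genes stayed under the minimum of 1 FPKM. The count of 2 genes at least 2-fold higher with LPS became 0 at a pseudocount of 5 FPKM and stayed at 2 under the other alternatives run. The median log2 ratio of those genes with LPS, 1.27, was 2.42 at a pseudocount of 0.1 FPKM, 0.47 at 5 FPKM and 0.35 over all 9 genes with no minimum. For density the value of -0.55, from Irgm1 alone, was -0.030 over all 9 genes with no minimum, -0.91 at a pseudocount of 0.1 FPKM and -0.20 at 5 FPKM. No gene of the set was left at a minimum of 5 FPKM. Rescaling without the 20 highest genes moved the density median of all measured genes to -0.22 and Irgm1 to -0.69, so that it stayed below that median. Counting intervals are wide for most genes at this depth. In HD 5 of the 9 genes were listed at 0, and the cause was not tested.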
